A study of Homo sapiens with 4 samples.

Results

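The 31 genes described here encode the enzymes of cholesterol synthesis, the SREBP regulators that control them, and a few proteins that carry sterol into, within or out of the cell or make fatty acids. They were taken by name from a list and looked up by Ensembl identifier among the 64252 genes of the count table, in which all 31 were found. Total RNA was sequenced from cells labelled NB4 after 24 h with 8 μM dBET1 (2 libraries) or with DMSO (2 libraries). NB4 is a line of promyelocytic leukemia that carries the PML-RARa fusion. dBET1 is a PROTAC made from the BET bromodomain ligand JQ1, and it brings BET proteins to CRBN, the adaptor of an E3 ubiquitin ligase. Each group has a replicate 1 and a replicate 2, and the labels do not say whether they came from separate cultures, so p-values measure the spread between these libraries only. Sequencing depth, as total counts, was 34685645 and 30631745 with DMSO against 28019956 and 28349721 with dBET1. The labelled cell type was checked against markers. The granule genes of promyelocytes (CTSG, PRTN3, MPO, ELANE and AZU1) had a summed count of 17 and 15 with DMSO and of 55 and 25 with dBET1, with ELANE and CTSG at 0 in each library. Erythroid genes were abundant in each library. GATA1, a factor of erythroid cells, had a count of 6759 and 6619 with DMSO and of 4617 and 4880 with dBET1. KLF1, another such factor, had a count of 6848 and 7058 with DMSO and of 1563 and 1487 with dBET1. ALAS2, the first enzyme of heme synthesis in these cells, had a count of 2684 and 2137 with DMSO and of 1246 and 1243 with dBET1. The part of the cell type in the results below was not tested.

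Cholesterol is built from acetyl-CoA in a mevalonate arm that ends in farnesyl diphosphate and a sterol arm that starts with squalene. Transcription of the pathway is set by the SREBP factors, which are made as precursors in the endoplasmic reticulum membrane. SCAP carries them to the Golgi for cleavage when sterol is low, and the INSIG proteins hold SCAP back when sterol is high. SREBP-2, from SREBF2, is known mainly for driving sterol genes and SREBP-1, from SREBF1, for driving fatty acid genes.

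Of the 31 genes, 28 passed the filter on low counts and were tested, and the other 3 (SC5D, ABCA1 and ABCG1) had at most 9 counts in any library. Genes were tested by the quasi-likelihood method of edgeR, and a gene was called higher or lower where its p, adjusted by Benjamini and Hochberg over 17971 tested genes, was under 0.05. Levels are CPM, counts divided by the TMM-normalized library size, and changes are log2 fold changes of dBET1 against DMSO. After dBET1 treatment, 6 of the 28 genes were higher (21.4%, against 28.0% of all genes tested) and 12 were lower (42.9%, against 27.6% of all genes tested), and 55.6% of all genes tested were called in either direction. Groups that did not overlap were found in 9 genes with dBET1 higher (41.9% of all genes tested) and in 16 with dBET1 lower (37.4%). With an absolute log2 fold change above 1 required as well, SREBF2 alone was higher (16.9% of all genes were) and ACAT2, SREBF1 and FASN were lower (8.54% of all genes were). The median log2 fold change of the 28 genes was -0.19, and that of all genes tested was 0.048. With total counts only, 7 of the 28 genes were lower, as were 3573 of the 17971 tested genes, against 4953 in the main fit. This scaling moved the median of all genes to 0.26 and that of the 28 genes to 0.020. A change of scaling shifts all genes alike, so the unchanged difference between these medians (-0.24) is no check on the scaling. Fewer of the 28 genes were also lower without dBET1 replicate 1. In bulk RNA, fewer cells of a type and less RNA per cell cannot be told apart.

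**Figure D1:**
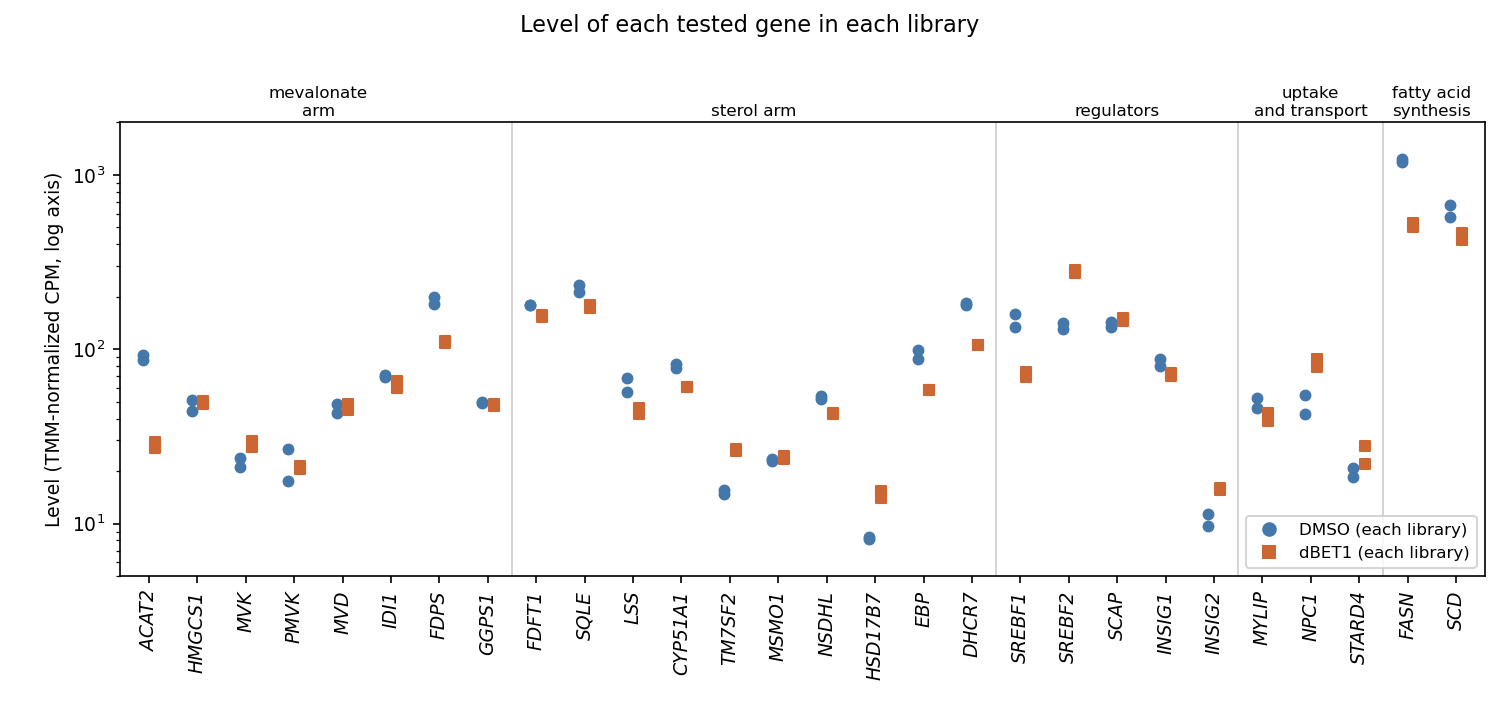
Level of each of the 28 tested genes in the 4 libraries, in TMM-normalized CPM on a log axis, with DMSO libraries as circles and dBET1 libraries as squares. FASN lies at 1179 and 1233 CPM with DMSO and at 504 and 527 CPM with dBET1, and SREBF2 is the regulator whose squares lie farthest above its circles.

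The mevalonate arm, with 8 genes tested, had 2 lower genes, 1 higher gene and 5 that did not pass the test. Of all genes tested, 27.6% were lower, near the share in this arm, and 28.0% were higher. ACAT2, a cytosolic thiolase that joins 2 acetyl-CoA at the head of the pathway (chromosome 6 of hg38, 159762045 to 159779112), had 86.4 and 92.2 CPM with DMSO and 27.0 and 29.5 CPM with dBET1. Every dBET1 library was below every DMSO library, and the log2 fold change was -1.66 (standard error, SE, of 0.0947, adjusted p = 1.42e-05), the lowest of the 28 genes. On the opposite strand TCP1, a chaperonin gene with 12271 to 28373 counts per library, overlaps 17.2% of the exon length of ACAT2, and it had a log2 fold change of -1.10. Its part in the ACAT2 counts was not tested, and TCP1 was looked up for this overlap after the values were seen.

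FDPS, the synthase of farnesyl diphosphate at the branch between sterols and other isoprenoids (chromosome 1, 155308748 to 155320666), had 181 and 199.9 CPM with DMSO and 108 and 112 CPM with dBET1. It fell by 0.79 on the log2 scale (SE 0.0816, adjusted p = 0.000152). RUSC1-AS1, an antisense RNA that overlaps 18.6% of the FDPS exon length, had a count of 271 and 284 with DMSO and of 96 and 105 with dBET1, and its part in the FDPS counts was not tested. GGPS1, which extends farnesyl diphosphate for protein prenylation, had 49.2 and 49.7 CPM with DMSO and 47.3 and 48.2 CPM with dBET1, a log2 fold change of -0.05 (SE 0.0857) that did not pass the test. The ratio of FDPS to GGPS1 per exon length, which does not depend on the scaling of the libraries, was 3.77 and 4.12 with DMSO and 2.34 and 2.38 with dBET1. These ratios did not overlap between the groups.

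MVK, the mevalonate kinase, had 21.2 and 23.6 CPM with DMSO and 29.8 and 27.4 CPM with dBET1, and it rose by a log2 fold change of 0.35 (SE 0.118, adjusted p = 0.0351). The call was lost with DESeq2, with no count filter and without DMSO replicate 1, dBET1 replicate 1 or dBET1 replicate 2. The steps between, HMGCS1 (which makes HMG-CoA), PMVK and MVD (a kinase and a decarboxylase of the mevalonate phosphates) and IDI1 (the isomerase of isopentenyl diphosphate), did not pass the test. Their log2 fold changes ran from -0.17 for IDI1 to 0.054 for HMGCS1, with standard errors from 0.0867 for IDI1 to 0.192 for PMVK. PMVK had the widest spread, with 17.5 and 26.8 CPM with DMSO and 21.4 and 20.7 CPM with dBET1, so that both dBET1 libraries lay between the DMSO libraries. Together the levels of the 8 genes summed to 538 ± 26.6 CPM with DMSO and 394 ± 8.09 CPM with dBET1 (SD over 2 libraries per group).

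Of the 11 genes of the sterol arm, 10 were tested. Of these, 7 were lower (27.6% of all genes tested were), 2 were higher (28.0% were) and 1 did not pass the test. The last enzyme, DHCR7, which reduces 7-dehydrocholesterol to cholesterol (chromosome 11, 71428193 to 71452868), had 184 and 178 CPM with DMSO and 106 and 106 CPM with dBET1, a log2 fold change of -0.77 (SE 0.0725, adjusted p = 9.52e-05). EBP, the sterol isomerase before it (chromosome X, 48521799 to 48528716), had 88.3 and 98.8 CPM with DMSO and 58.1 and 58.2 CPM with dBET1, a log2 fold change of -0.68 (SE 0.0894, adjusted p = 0.000477). Both genes were lower in each dBET1 library than in either DMSO library (37.4% of all genes tested were), and both calls held in each of the 11 alternatives.

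The other 5 lower genes changed less. FDFT1, the squalene synthase, had 178 and 179 CPM with DMSO and 156 and 153 CPM with dBET1, a log2 fold change of -0.21 (SE 0.0706). SQLE, the squalene epoxidase that adds the first oxygen, had 232 and 214 CPM with DMSO and 172 and 178 CPM with dBET1, a log2 fold change of -0.35 (SE 0.0761). LSS, which closes the rings to lanosterol, had 57.1 and 68.2 CPM with DMSO and 42.7 and 46.2 CPM with dBET1, a log2 fold change of -0.49 (SE 0.111). In all 3 genes the groups did not overlap, with dBET1 lower, as in 37.4% of all genes tested. The ratio of SQLE to LSS per exon length was 6.84 and 5.27 with DMSO and 6.77 and 6.48 with dBET1, so that the groups overlapped (log2 change of 0.14 against a spread of 0.269). CYP51A1, the lanosterol demethylase, had a log2 fold change of -0.40 (SE 0.0829) and NSDHL, a sterol dehydrogenase, one of -0.31 (SE 0.0875). The calls of these 5 genes were all lost with total counts only and without dBET1 replicate 1, and those of FDFT1, CYP51A1 and NSDHL also without dBET1 replicate 2.

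The remaining pair of called genes went the other way. TM7SF2, a sterol reductase acting on the product of CYP51A1 (chromosome 11, 65111845 to 65116384), had 14.8 and 15.5 CPM with DMSO and 26.2 and 26.6 CPM with dBET1, a log2 fold change of 0.80 (SE 0.117, adjusted p = 0.000851). HSD17B7, a sterol ketoreductase (chromosome 1, 162790702 to 162812823), had 8.40 and 8.15 CPM with DMSO and 14.0 and 15.5 CPM with dBET1, a log2 fold change of 0.83 (SE 0.154, adjusted p = 0.00267). They were the 2 least abundant tested genes of the arm per exon length, at 4.45 CPM per kb for TM7SF2 and 1.73 CPM per kb for HSD17B7 with DMSO, against 52.9 CPM per kb for EBP and 51.8 CPM per kb for SQLE. MSMO1, the sterol methyl oxidase that works between CYP51A1 and NSDHL, had 22.7 and 23.4 CPM with DMSO and 23.4 and 24.5 CPM with dBET1, a log2 fold change of 0.057 (SE 0.111) that did not pass the test.

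SC5D, a sterol desaturase before DHCR7, had 0 counts in all 4 libraries, which allows a level of up to 0.0993 CPM with DMSO (3 counts, for counting error only). This limit holds only if reads of the gene were counted, which was not tested. Its neighbours were looked up after this was seen. SC5D is 1 of 10 protein-coding genes in a row on chromosome 11 that had at most 3 counts in any library, between ARHGEF12, which ends 802.7 kb before it, and HSPA8, which starts 1744 kb after it, the nearest genes with at least 100 counts in a library.

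Over both arms, 9 of the 18 tested synthesis genes were lower (27.6% of all genes tested were) and 3 were higher (16.7%, against 28.0%). Their summed level was 1457 ± 32.1 CPM with DMSO and 1101 ± 15.2 CPM with dBET1 (SD over 2 libraries per group), a ratio of 0.756. Reads of SQLE, FDPS, DHCR7 and FDFT1 made up 53.1% of this sum with DMSO and 49.5% with dBET1. With total counts only 4 synthesis genes were lower, as were 3573 of the 17971 tested genes, against 4953 in the main fit. Fewer synthesis genes were also lower without dBET1 replicate 1. Among the tested genes of this report, the level per exon length with DMSO and the log2 fold change had a Spearman rho of -0.76 and a Pearson r of -0.72 over 28 genes, which share the same libraries. Over 16631 tested genes with an annotated length, rho was -0.60 and r was -0.67. For these a small constant was added to each level before the log, which was not done for the 28 genes. The level with DMSO also enters the log2 fold change, so part of each negative correlation is built in.

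**Figure D2:**
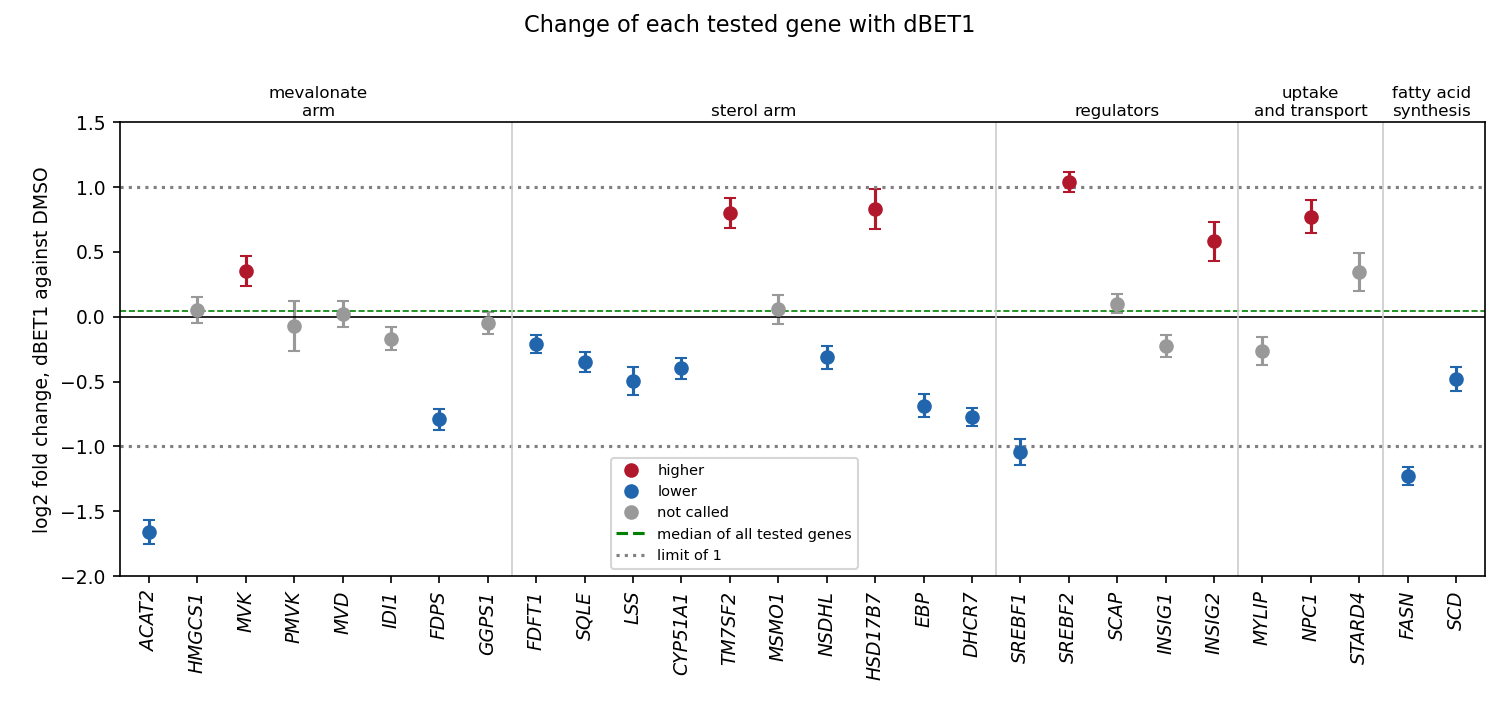
Log2 fold change of dBET1 against DMSO for each tested gene in pathway order, with bars of 1 standard error; colours give the call at an adjusted p under 0.05, dotted lines the limit of 1 and the dashed line the median of all genes tested, 0.048. ACAT2, SREBF1 and FASN lie below -1 and SREBF2 lies above 1. In the sterol arm 7 genes are lower (27.6% of all genes tested were), and TM7SF2 and HSD17B7 are higher (28.0% were).

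The promoters of a pair of enzymes that fell (FDPS and EBP) and of the pair that rose in the sterol arm are shown because these genes share a pathway and differ in direction. The windows hold 300 bases, from 250 before to 50 after the start, and come from RefSeq on GRCh38.p14. Capitals mark CCAAT, the letters bound by NF-Y, a known partner of the SREBP factors, or ATTGG, the same letters on the other strand.
FDPS (chr1:155308616-155308915, forward strand): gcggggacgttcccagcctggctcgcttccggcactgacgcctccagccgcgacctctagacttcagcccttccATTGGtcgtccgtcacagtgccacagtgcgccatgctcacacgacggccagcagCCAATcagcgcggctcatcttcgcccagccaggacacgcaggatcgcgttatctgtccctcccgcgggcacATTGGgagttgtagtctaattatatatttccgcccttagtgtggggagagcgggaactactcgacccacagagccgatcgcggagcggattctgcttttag
EBP (chrX:48521558-48521857, forward strand): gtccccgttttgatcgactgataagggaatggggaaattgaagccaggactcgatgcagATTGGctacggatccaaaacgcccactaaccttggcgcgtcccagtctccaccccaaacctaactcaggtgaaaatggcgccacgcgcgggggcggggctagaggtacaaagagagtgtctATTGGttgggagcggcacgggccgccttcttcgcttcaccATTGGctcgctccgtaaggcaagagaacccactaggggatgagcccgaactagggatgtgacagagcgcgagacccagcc
TM7SF2 (chr11:65111622-65111921, forward strand): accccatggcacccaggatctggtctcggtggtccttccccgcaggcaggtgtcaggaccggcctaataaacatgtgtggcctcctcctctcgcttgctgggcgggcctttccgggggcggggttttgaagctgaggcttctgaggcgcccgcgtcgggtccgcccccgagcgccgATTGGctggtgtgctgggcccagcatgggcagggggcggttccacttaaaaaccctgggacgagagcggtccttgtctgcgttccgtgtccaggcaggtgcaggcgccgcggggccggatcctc
HSD17B7 (chr1:162790452-162790751, forward strand): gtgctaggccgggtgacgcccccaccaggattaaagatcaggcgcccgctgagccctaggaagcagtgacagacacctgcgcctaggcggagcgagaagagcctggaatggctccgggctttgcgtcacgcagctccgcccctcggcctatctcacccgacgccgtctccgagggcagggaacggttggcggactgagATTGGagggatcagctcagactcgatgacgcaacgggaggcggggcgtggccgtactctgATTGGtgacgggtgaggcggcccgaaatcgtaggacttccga
The FDPS window held 3 matches, EBP 3, TM7SF2 1 and HSD17B7 2. Of the other called genes with a single window, the lower genes held 0 (CYP51A1 and SREBF1), 1 (LSS), 2 (SCD) or 5 (NSDHL). The higher genes held 0 (NPC1), 1 (SREBF2) or 5 (MVK). CCAAT was looked for on both strands in the 26 genes with a window, and 19 held it (73.1%), against 39.7% of 27305 genes with a window. It was in 6 of the 8 lower genes with a window, 4 of the 6 higher genes and 8 of the 10 genes that did not pass the test. ACAT2, FASN, FDFT1 and SQLE, which were all lower, had no window, nor had ABCG1. GGGCGG, the GC-box, was in 25 of the 26 (96.2%, against 48.3%), and CACGTG, an E-box, in 5 of the 26 (19.2%, against 8.77%). A match is a description of the letters in this window, and 6 of the 26 genes have more than 1 window.

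Among the regulators the SREBP genes moved in opposite directions. SREBF1 (chromosome 17, 17810399 to 17837002) had 135 and 159.8 CPM with DMSO and 69.0 and 73.8 CPM with dBET1. SREBF2 (chromosome 22, 41833105 to 41907306) had 141 and 130.3 CPM with DMSO and 283 and 274 CPM with dBET1. For each gene the dBET1 libraries lay outside the range of the DMSO libraries (41.9% of all genes tested lay above it and 37.4% below it). SREBF1 fell by 1.04 on the log2 scale (SE 0.101, adjusted p = 0.000112), and SREBF2 rose by 1.04 (SE 0.0761, adjusted p = 3.38e-05). Both calls and directions held in all 11 alternatives, total counts included, although SREBF1 ran from -1.19 to -0.83 and SREBF2 from 0.95 to 1.25, and without DMSO replicate 2 they were short of the limit of 1, at -0.95 and 0.95. RAI1, on the opposite strand, overlaps 6.8% of the SREBF1 exon length and had a log2 fold change of -0.70, and its part in the SREBF1 counts was not tested. The ratio of SREBF1 to SREBF2 per exon length was 0.935 and 1.20 with DMSO and 0.238 and 0.263 with dBET1, a log2 change of -2.08 against a spread between libraries of 0.274. No test was run on the ratios, since 2 against 2 libraries cannot go below 0.333 in a two-sided exact permutation test.

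**Figure D3:**
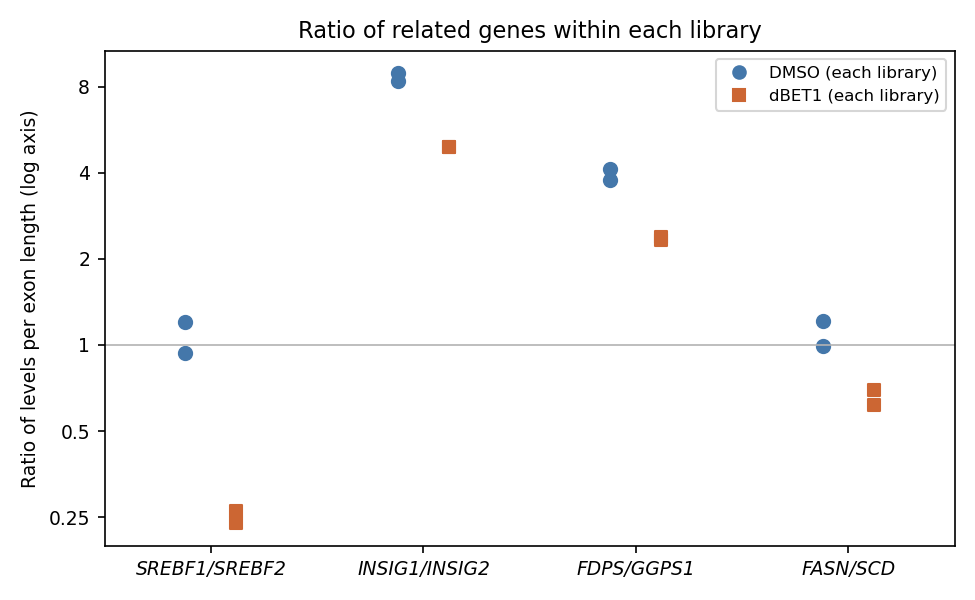
Ratio of 2 related genes within each library, as level per exon length on a log axis, with DMSO libraries as circles and dBET1 libraries as squares. SREBF1/SREBF2 falls from 0.935 and 1.20 to 0.238 and 0.263, and in the other 3 ratios drawn the dBET1 libraries also lie below the DMSO libraries; the ratio of SQLE to LSS, which is not drawn, overlapped.

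The SREBP promoters are shown because the genes changed by a like amount in opposite directions. Capitals mark TCACNCCAC or its reverse GTGGNGTGA, letters like the sterol regulatory element that SREBP binds, and CCAAT or ATTGG.
SREBF1 (chr17:17836937-17837236, reverse strand): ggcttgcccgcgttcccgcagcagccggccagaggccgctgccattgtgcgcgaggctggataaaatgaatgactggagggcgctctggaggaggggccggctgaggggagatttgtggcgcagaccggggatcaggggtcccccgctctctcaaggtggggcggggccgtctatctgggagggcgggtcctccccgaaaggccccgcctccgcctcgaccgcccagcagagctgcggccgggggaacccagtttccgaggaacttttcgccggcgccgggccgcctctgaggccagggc
SREBF2 (chr22:41832855-41833154, forward strand): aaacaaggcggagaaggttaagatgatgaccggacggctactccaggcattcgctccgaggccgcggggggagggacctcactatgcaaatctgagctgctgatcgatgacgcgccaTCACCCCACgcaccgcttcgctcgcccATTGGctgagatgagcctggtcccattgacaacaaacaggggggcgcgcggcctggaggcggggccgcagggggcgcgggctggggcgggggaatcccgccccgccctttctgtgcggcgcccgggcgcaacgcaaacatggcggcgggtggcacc
The SREBF2 window held TCACCCCAC starting 133 bases before the start and ATTGG starting 106 bases before it. The SREBF1 window held neither. SREBF2 was the only one of the 26 genes with TCACNCCAC in its window (3.85%, against 1.39% of all genes with a window). This says only that these letters are not in the other windows, each of them a single stretch around an annotated start.

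SCAP, the escort of SREBP, had 134 and 142 CPM with DMSO and 151 and 146 CPM with dBET1, a log2 fold change of 0.10 (SE 0.0758) that did not pass the test. INSIG1, itself a known SREBP target, had 87.6 and 80.1 CPM with DMSO and 70.6 and 72.7 CPM with dBET1. INSIG2, its paralog, had 11.3 and 9.71 CPM with DMSO and 15.6 and 16.0 CPM with dBET1. Neither INSIG gene overlapped between the groups, as in 41.9% of all genes tested with dBET1 higher and 37.4% with dBET1 lower. INSIG1 was the more abundant in all 4 libraries. INSIG2 rose by a log2 fold change of 0.58 (SE 0.151, adjusted p = 0.0125), a call that was lost without dBET1 replicate 1 or 2 and with no count filter. INSIG1, at a log2 fold change of -0.23 (SE 0.0858, adjusted p = 0.0537), did not pass the test, but it passed without DMSO replicate 1 or 2 and with DESeq2 size factors in edgeR. The ratio of INSIG1 to INSIG2 per exon length was 8.39 and 8.92 with DMSO and 4.91 and 4.93 with dBET1, a log2 change of -0.81 against a spread of 0.0629. The ratio of INSIG1 to SREBF2 was 1.37 and 1.36 with DMSO and 0.549 and 0.585 with dBET1.

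In the group for uptake and transport, 1 of 3 tested genes was higher (33.3%, near the 28.0% of all genes tested). None was lower with edgeR's test or with DESeq2 (27.6% of all genes tested were lower with edgeR). The other 2 had unadjusted p of 0.0409 (MYLIP) and 0.0491 (STARD4) with edgeR's test. NPC1, the membrane protein that lets cholesterol leave late endosomes and lysosomes (chromosome 18, 23506184 to 23586506), had 54.6 and 42.7 CPM with DMSO and 87.5 and 78.8 CPM with dBET1, a log2 fold change of 0.77 (SE 0.127, adjusted p = 0.00155). STARD4, a soluble sterol carrier, had 20.9 and 18.5 CPM with DMSO and 22.1 and 28.0 CPM with dBET1, a log2 fold change of 0.35 (SE 0.149, adjusted p = 0.0808), and it passed the test without DMSO replicate 1, with total counts only and with at least 10 counts in every library. MYLIP, an E3 ligase that marks lipoprotein receptors for degradation and a target of the sterol sensor LXR, had 52.4 and 45.8 CPM with DMSO and 43.1 and 38.7 CPM with dBET1, a log2 fold change of -0.26 (SE 0.108, adjusted p = 0.0691), and it passed without DMSO replicate 2. In all 3 genes the groups did not overlap, which was also so in 41.9% of all genes tested with dBET1 higher and in 37.4% with dBET1 lower.

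The export genes were near the detection limit. ABCA1, which moves cholesterol to apolipoproteins, had a count of 0 and 0 with DMSO and of 7 and 9 with dBET1. Its mean level with dBET1 was 2.66-fold a floor of 3 counts per DMSO library, a value that leaves out the counting error of the dBET1 counts. No test was run since it did not pass the filter. ABCG1, which moves cholesterol to lipoprotein particles, had 0 counts in each library.

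Both fatty acid genes were lower (27.6% of all genes tested were). FASN, the fatty acid synthase (chromosome 17, 82078338 to 82098294), had 1179 and 1233 CPM with DMSO and 504 and 527 CPM with dBET1. It fell by 1.23 on the log2 scale (SE 0.0693, adjusted p = 1.39e-05), to 0.427 of its level with DMSO, and ran from -1.29 to -1.02 over the alternatives. Reads of FASN made up 30.1% and 31.5% of the summed CPM of the 31 genes with DMSO and 18.0% and 18.9% with dBET1. SCD, the desaturase that makes oleate (chromosome 10, 100347233 to 100364826), had 668 and 570 CPM with DMSO and 461 and 425 CPM with dBET1, a log2 fold change of -0.48 (SE 0.0925, adjusted p = 0.00319). The larger fall of FASN is seen in the ratio of FASN to SCD per exon length, which was 0.994 and 1.22 with DMSO and 0.614 and 0.696 with dBET1.

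Other genes of sterol and lipid metabolism were taken from 6 lists of 64 genes in all, of which 60 were tested. Of these, 27 were lower (27.6% of all genes tested were) and 13 were higher (21.7%, against 28.0%), and their median log2 fold change was -0.21. With total counts only 22 were higher, as were 6703 of the 17971 tested genes, against 5038 in the main fit. Fewer were higher without dBET1 replicate 1 and without dBET1 replicate 2. In the list of fatty acid genes known as SREBP targets, 8 of 14 were lower (57.1%, against 27.6% of all genes tested) and 3 were higher (21.4%, against 28.0%), with a median of -0.36. The number higher was 1 with DESeq2, with no count filter and without dBET1 replicate 1, it was 0 without dBET1 replicate 2, and it was 5 with total counts only, while the number lower was 7 or 8 in each alternative. The desaturase gene FADS1 had 372 and 331 CPM with DMSO and 105 and 105 CPM with dBET1, a log2 fold change of -1.74 (SE 0.0831, adjusted p = 9.43e-06). FADS2, the desaturase that acts before it, had 47.6 and 48.4 CPM with DMSO and 14.9 and 15.4 CPM with dBET1, a log2 fold change of -1.67 (SE 0.101). The log2 fold changes of both were below that of FASN. ACLY, which supplies cytosolic acetyl-CoA, and ELOVL6, a fatty acid elongase, had log2 fold changes of -0.72 (SE 0.0720) and -0.95 (SE 0.104).

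Sterol uptake, storage and trafficking genes went both ways, with 3 of 9 tested genes lower (33.3%, near the 27.6% of all genes tested), 2 higher (22.2%, near the 28.0%) and a median of 0.026. The number higher was 5 with total counts only and 1 with no count filter, without dBET1 replicate 1 or without dBET1 replicate 2. SCARB1, a receptor that takes up cholesterol esters from lipoprotein particles, had 159.3 and 154 CPM with DMSO and 47.2 and 47.8 CPM with dBET1, a log2 fold change of -1.72 (SE 0.0783, adjusted p = 7.96e-06). LRP8, a lipoprotein receptor, and TMEM97, an NPC1-binding membrane protein, had log2 fold changes of -0.97 (SE 0.125) and -0.50 (SE 0.0823). NPC2, the lysosomal sterol carrier that hands cholesterol to NPC1, had 9.13 and 8.36 CPM with DMSO and 19.9 and 23.1 CPM with dBET1, a log2 fold change of 1.30 (SE 0.149, adjusted p = 0.000252). NPC1 and NPC2, which act in the same lysosomal step, were thus both higher.

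Of 9 genes for SREBP processing and sterol sensing, 3 were higher and 3 were lower (33.3% each, near the 28.0% and 27.6% of all genes tested), with a median of -0.013. Without dBET1 replicate 1, and likewise without dBET1 replicate 2, 1 was higher and 2 were lower. SPRING1, a gene needed for SREBP cleavage, had a log2 fold change of 0.42 (SE 0.0935), a call lost without dBET1 replicate 1 or dBET1 replicate 2, while RNF145, a sterol-responsive E3 ligase, had -0.64 (SE 0.125) and ERLIN1, a lipid raft protein that binds the SREBP complex, -0.61 (SE 0.118). Of 9 tested genes among LXR receptors and targets, 4 were higher (44.4%, against 28.0% of all genes tested) and 2 were lower (22.2%, against 27.6%), with a median of -0.044. Without dBET1 replicate 1 the number higher was 2, and the number lower was 1 with total counts only and without dBET1 replicate 1 or dBET1 replicate 2. NR1H2, the gene of LXR-beta, had 55.5 and 58.6 CPM with DMSO and 39.8 and 39.1 CPM with dBET1, a log2 fold change of -0.53 (SE 0.0883, adjusted p = 0.00161). Its partner genes RXRA and RXRB had log2 fold changes of 0.43 (SE 0.101) and 0.72 (SE 0.163). The call of RXRA was lost without dBET1 replicate 1 and that of RXRB without dBET1 replicate 2. ABCG4, a sterol exporter of the same family as ABCG1, had a count of 0 and 2 with DMSO and of 40 and 77 with dBET1. Its log2 fold change was 5.70 (SE 0.806). With so few DMSO counts the size of this rise is uncertain, and the gene passed the count filter only through its dBET1 libraries.

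**Figure D4:**
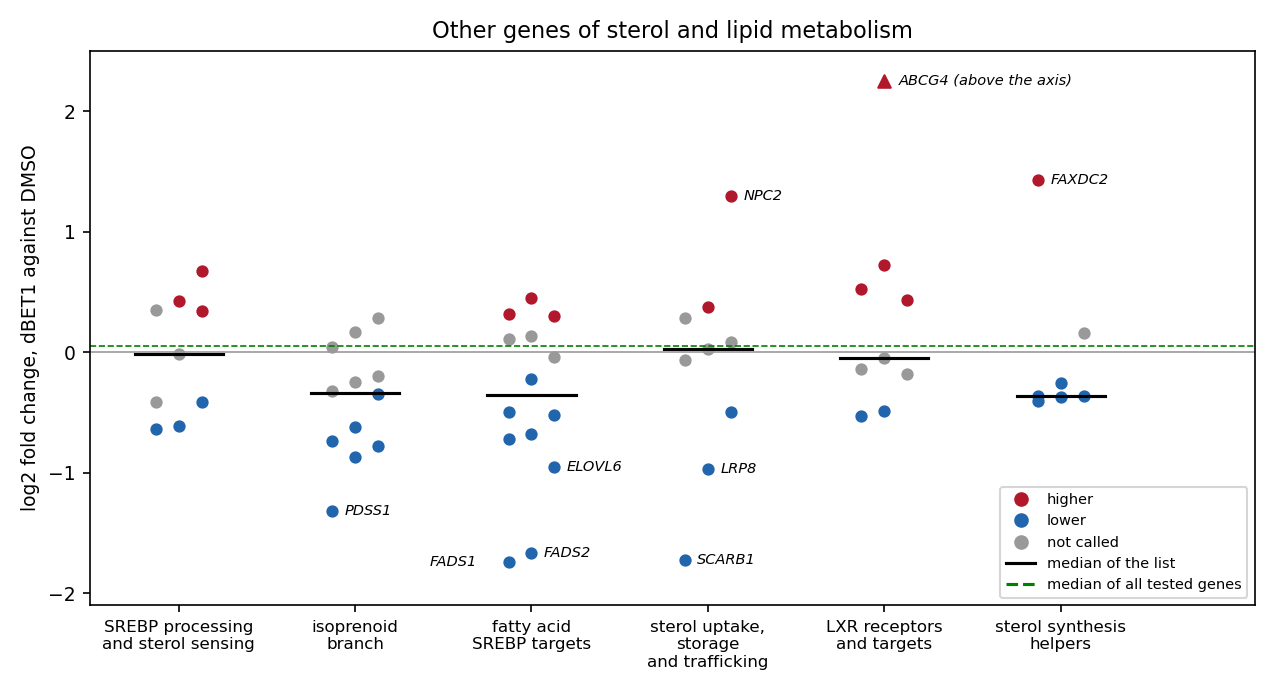
Log2 fold change of each tested gene in 6 lists of sterol and lipid genes, coloured by call, with the list's median as a bar and the median of all genes tested, 0.048, as a dashed line. FADS1, FADS2 and SCARB1 lie near -1.7 (log2 fold changes of -1.74, -1.67 and -1.72), NPC2 and FAXDC2 lie above 1, and ABCG4 is above the axis.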

How the data were processed

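RNA was measured in 4 libraries, 2 per group. Reads (150 bp, paired) were cleaned by the sequencing provider, and the authors used HISAT2 2.2.0 to align them to hg38 and StringTie for abundance. The deposited values are whole counts for each Ensembl gene. The step that made the counts and its strand setting are not given in the sources used here, so overlapping genes can share counts. Pseudogenes named after a member (17) had at most 13 counts. Columns were matched to samples by group, time and number, with NC read as DMSO; 0 columns were left out. Symbols, positions and exon lengths came from GENCODE release 44 (56105 of 64252 identifiers matched).

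Counts were analysed with edgeR 4.0.16 in R 4.3.3: filterByExpr, TMM factors (0.918 to 1.08), the quasi-likelihood test with the group alone, with p-values adjusted by the Benjamini-Hochberg method over 17971 genes. SE was the log2 fold change divided by the square root of F. The methods of the study used DESeq2, which is an alternative here (DESeq2 1.42.0). The libraries within a group differed beyond counting noise (ratio of chi-square to its degrees of freedom 23.6 for DMSO and 8.14 for dBET1). Levels per exon length are CPM divided by the exon length in kb. Tests were checked on 5 simulated sets with 200 changed genes each and a single spread for all genes. In these data far more genes were called (55.6% of those tested) and the groups differed in spread, which the simulated sets do not cover. Intervals and floors cover counting error only.

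The members, lists and motifs were chosen with earlier results of these data known. All 31 members are named, and in each other list up to 4 called genes with the smallest p, of which some are not reported here. Alternatives were DESeq2, edgeR with size factors from DESeq2, total counts only, 2 other count filters, a replicate block, counts divided by 2, and leaving out 1 library at a time.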

Additional observations from a re-analysis of the deposited data

How the results depend on the processing

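Of the 18 called members, 11 kept their call and direction in each of the 11 alternatives: ACAT2, FDPS, TM7SF2, HSD17B7, EBP, DHCR7, SREBF1, SREBF2, NPC1, FASN and SCD. At an absolute log2 fold change above 1 as well, 1 member was higher and 3 were lower. With total counts only, 7 members and 4 synthesis genes were lower and 22 other pathway genes were higher. With this scaling 3573 of 17971 tested genes were lower and 6703 were higher, against 4953 and 5038 in the main fit. The median log2 fold change of the members and of the synthesis genes turned to 0.020, because this scaling shifts all genes up. The median of the mevalonate arm turned from -0.060 to 0.15 with total counts only and to 0.010 with at least 10 counts in every library. With 1 library left out, 7 to 15 members were lower and 4 to 6 were higher, 4 to 11 synthesis genes were lower, and 6 to 14 other pathway genes were higher; in each case the lowest number came without dBET1 replicate 1, which for the higher genes was shared with dBET1 replicate 2. The deviations of replicate 1 from its group mean had a correlation of 0.0023 between groups, so no shift shared by replicate number was seen. This cannot show whether the replicates were handled as pairs, which the labels do not say. With the replicate block 6 members were higher and 11 were lower, the lost call being FDFT1. A fit without 1 library assumes that the lone library of its group varies like the other group. SDs rest on 2 values, and no test of outlying libraries applies to groups of 2. Genes near 0 counts, such as ABCA1, were limited by depth.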

Other observations

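Genes that branch from or help the pathway were also counted. In the isoprenoid branch, which uses farnesyl and geranylgeranyl diphosphate for ubiquinone, dolichol and protein prenylation, 6 of 12 genes were lower (27.6% of all genes tested were) and none was higher by the quasi-likelihood test of edgeR (1 was higher at an unadjusted p under 0.05, PGGT1B, and 2 were higher with total counts only and with at least 10 counts in every library, FNTA and PGGT1B, 1 with counts divided by 2, PGGT1B, and none with DESeq2), with a median log2 fold change of -0.33. PDSS1 and PDSS2, the subunits of the enzyme that makes the ubiquinone side chain, were both lower. PDSS1 had 40.3 and 43.4 CPM with DMSO and 17.7 and 15.9 CPM with dBET1, a log2 fold change of -1.32 (SE 0.113, adjusted p = 6.58e-05), and PDSS2 had a log2 fold change of -0.87 (SE 0.133). NUS1, a subunit of the dolichol synthase, had a log2 fold change of -0.62 (SE 0.0842).

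Among genes that help sterol synthesis, 5 of 7 were lower and 1 was higher (27.6% and 28.0% of all genes tested were), with a median of -0.36. The number lower was 0 with total counts only, 1 without dBET1 replicate 1, 1 without dBET1 replicate 2 and 3 with at least 10 counts in every library. LBR, a nuclear envelope protein with the same sterol reductase activity as TM7SF2, had 381 and 330 CPM with DMSO and 271 and 279.9 CPM with dBET1, a log2 fold change of -0.37 (SE 0.0859, adjusted p = 0.00784), so that these genes of like activity moved in opposite directions. The call of LBR was lost with total counts only and without dBET1 replicate 1. CYB5B and CYB5R3, which pass electrons to sterol oxidases, had log2 fold changes of -0.41 (SE 0.0794) and -0.37 (SE 0.0790). Both calls were lost with total counts only and without dBET1 replicate 2, and that of CYB5R3 also without dBET1 replicate 1. FAXDC2, a membrane hydroxylase of the same family as MSMO1 and SC5D, had 14.3 and 12.2 CPM with DMSO and 36.2 and 35.1 CPM with dBET1, a log2 fold change of 1.42 (SE 0.125, adjusted p = 7.11e-05).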
